A study of Rattus norvegicus with 12 samples.

Results

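The genes Ddit4, Sesn1, Atf4, Atf5, Ddit3, Trib3, Asns, Phgdh and Psat1 were followed in rat liver: the transcription factors of the ATF4 branch of the stress response, genes that this branch switches on, and a pair of inhibitors of the growth kinase complex mTORC1. They were chosen by gene name, taking every probe of the array that carries such a name after a suffix for predicted or mapped genes was dropped. Each gene had 1 probe, so 9 of 35737 gene names and 9 of the 41012 probes of the array are described, and 8 of these 9 were tested among the 28173 probes that passed a filter on dim signals. Psat1 was too dim to be tested. All 12 arrays carried liver RNA of adrenalectomized Sprague-Dawley rats that were 8 to 10 weeks old, the females in diestrus. The groups were males given dexamethasone, males given vehicle, females given dexamethasone and females given vehicle, with 3 arrays each. Dexamethasone, a synthetic agonist of the glucocorticoid receptor, was injected into the peritoneum at 1 mg/kg, vehicle was phosphate-buffered saline, and liver was taken 6 h later. Adrenalectomy removes the main source of the animals' own corticosterone, and all 4 groups shared it, so no group had intact adrenal glands. RNA of 3 animals was pooled for each array, 9 animals per group, and every error below is the spread among arrays of pooled RNA, not among animals.

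Cells that run short of an amino acid, or that fold proteins poorly in the endoplasmic reticulum, phosphorylate the translation factor eIF2. Most translation then slows, while the messenger RNA of ATF4 is translated better, so that much of the control of ATF4 lies in translation and does not show in its transcript. ATF4 is a leucine zipper factor that pairs with C/EBP partners and switches on genes of amino acid uptake, amino acid synthesis and stress, among them Asns, Phgdh, Psat1, Ddit3 and Trib3. The kinase complex mTORC1 promotes protein synthesis when amino acids and insulin are plentiful, and it is restrained by the products of Ddit4, also known as REDD1, and of the sestrin gene Sesn1. Ddit4 is also a known target of the glucocorticoid receptor in several tissues.

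The level of each gene was read by an oligonucleotide of 60 bases on the array. The probes of 5 genes are shown because the differences described below, or the arrays that stood apart, were read through them. They are given 5′ to 3′ as the scanner files print them, in lower case with nothing marked:
Ddit4: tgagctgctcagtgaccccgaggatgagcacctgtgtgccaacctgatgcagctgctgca
Sesn1: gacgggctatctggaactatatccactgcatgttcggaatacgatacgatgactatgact
Atf4: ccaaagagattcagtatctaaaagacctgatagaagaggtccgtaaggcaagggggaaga
Ddit3: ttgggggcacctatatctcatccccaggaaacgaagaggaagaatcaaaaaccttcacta
Asns: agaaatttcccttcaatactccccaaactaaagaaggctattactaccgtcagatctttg
The accession behind the probe matched the RefSeq gene of that name for all genes but Sesn1, whose probe the file assigns to a predicted transcript. For Sesn1 the name in the file was therefore kept. All levels are log2 intensities after the 75th percentile of the array's spots was subtracted, so that a level of 0 is that of the 75th percentile spot. Probes differ in how brightly they bind, and levels are compared between groups for the same gene only.

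Spots well above background made up 52.5% to 69.2% of each array, and no spot was saturated. Arrays within a group correlated at 0.954 to 0.991 over all tested probes. Replicate 3 of all 4 groups lay on 1 slide, called slide 5, and these arrays were dimmer, with 52.5% to 61.4% of spots well above background against 62.2% to 69.2% on the other 8. Of these, male vehicle 3 was the lowest array of its group for 7 of the 8 tested genes, so results are also given within slide 5 and without it. The other slides held male dexamethasone 1 with male vehicle 2 (slide 1), male dexamethasone 2 with female vehicle 1 and 2 (slide 2), male vehicle 1 (slide 3), and female dexamethasone 1 and 2 (slide 4). Outside slide 5, female dexamethasone and female vehicle arrays shared no slide and no scan day, so treatment and slide cannot be told apart there. With slide or scan day as a fixed block, female dexamethasone is compared with the other groups within slide 5 only. All 7 markers of hepatocytes were well above background on every array. The known glucocorticoid target Fkbp5 was higher after dexamethasone by 4.17 ± 0.18 in males and 4.54 ± 0.20 in females (log2 difference ± SE, adjusted p 2.7e-06 and 3.75e-06, limma).

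**Figure D1:**
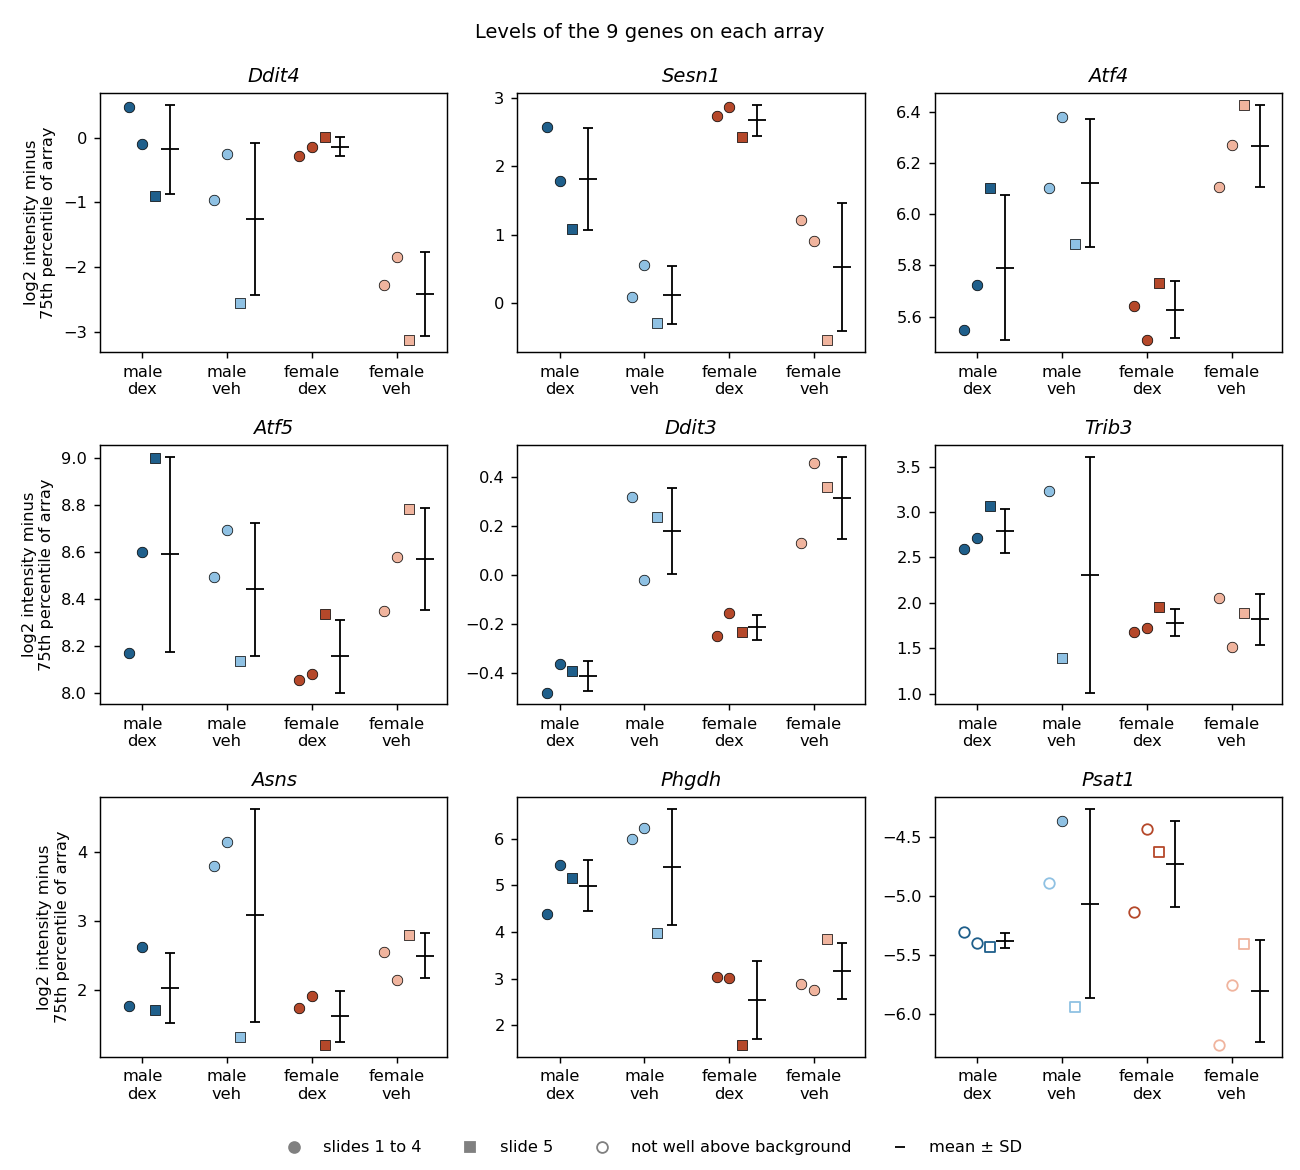
Levels of the 9 genes on each of the 12 arrays, as log2 intensity minus the 75th percentile of the array, with dexamethasone left of vehicle in males and then in females. Squares are the arrays of slide 5, open symbols are spots not well above background, and bars are the mean ± SD of the group. The 3 female dexamethasone arrays lie above the 3 female vehicle arrays for Ddit4 and Sesn1, and below them for Atf4 and Ddit3. For Asns and Phgdh the square of male vehicle lies far below the other arrays of its group.

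After dexamethasone, Sesn1 was higher in both sexes, Ddit4 was higher in females, Ddit3 was lower in both sexes, and Atf4 was lower in females. Atf5, Trib3, Asns and Phgdh did not pass the threshold of an adjusted p under 0.05 in either sex. In males 1 gene was thus called higher, 1 lower and 6 not, against 19.7% of all tested probes called in either direction. In females 2 were called higher, 2 lower and 4 not, against 23.9% of all tested probes. The median difference of the 8 genes was -0.09 in males and -0.47 in females, against 0.01 and -0.05 over all tested probes. With 8 genes, the counts of 2 and 4 were not tested against these shares. All calls are from limma's moderated test on 12 arrays, with Benjamini-Hochberg adjustment over the 28173 probes.

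Liver contains other cell types, and in bulk RNA fewer cells of a type and less RNA per cell cannot be told apart. Of 11 markers of T, NK and B lymphocytes, 4 to 6 were well above background on a dexamethasone array and 7 or 8 on a vehicle array, and Cd3e and Cd2 were so on none. Their summed level, in units of the 75th percentile spot, was 2.05 to 2.47 on male dexamethasone and 4.29 to 5.54 on male vehicle arrays, and 1.79 to 1.97 on female dexamethasone and 4.43 to 6.81 on female vehicle arrays. The 7 markers listed for bile duct were Krt7, Krt19, Epcam, Sox9, Krt18, Krt8 and Spp1. Of these, Krt8 and Krt18 are also made by hepatocytes, so the sum is not of duct cells alone. Their sum was 75.3 to 129 on male dexamethasone and 242 to 347 on male vehicle arrays. On female arrays it was 141 to 171 after dexamethasone and 381 to 689 after vehicle. The sum of 6 endothelial markers was 22.2 to 30.7 on male dexamethasone and 33.9 to 47.2 on male vehicle arrays, and 9.78 to 24.5 on female dexamethasone and 41.6 to 68.1 on female vehicle arrays. The sum of 7 Kupffer cell and macrophage markers was 32.0 to 61.4 on male dexamethasone and 49.6 to 74.9 on male vehicle arrays, and 28.0 to 61.7 on female dexamethasone and 55.5 to 91.1 on female vehicle arrays. The sum of 7 stellate cell and fibroblast markers was 52.8 to 63.0 on male dexamethasone and 54.5 to 70.6 on male vehicle arrays. It was 31.7 to 57.8 on female dexamethasone and 60.2 to 70.7 on female vehicle arrays. The lymphocyte, bile duct and endothelial sums were lower on every dexamethasone array than on any vehicle array of the same sex. For the stellate cell and fibroblast sum this held in females and not in males. All dexamethasone arrays also lay below all vehicle arrays for Ddit3 in both sexes, and for Atf4, Atf5 and Asns in females. They lay above all vehicle arrays for Sesn1 in both sexes and for Ddit4 in females. In either direction, groups thus did not overlap for 2 of the 8 tested genes in males and 6 in females. Groups did not overlap, in either direction, for 35% of all tested probes in males and 42.8% in females. A sum follows its brightest members, so the tests of single markers are given too. Of the tested lymphocyte markers 6 of 8 were called lower in males and 7 of 8 in females, while the same was true of 2 of 7 bile duct and 2 of 7 Kupffer markers in each sex. Of 5 tested endothelial markers, 1 was called higher and 0 lower in males (median difference 0.15), and 1 higher and 1 lower in females (median -0.65). Of 7 tested stellate cell and fibroblast markers, 0 were called higher and 1 lower in males, and 0 higher and 2 lower in females. The part of these cells in the differences described here was not tested. The sum of 7 hepatocyte markers was 3669 to 4931 on male dexamethasone and 2379 to 4728 on male vehicle arrays, and 4743 to 5190 on female dexamethasone and 3262 to 4282 on female vehicle arrays.

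**Figure D2:**
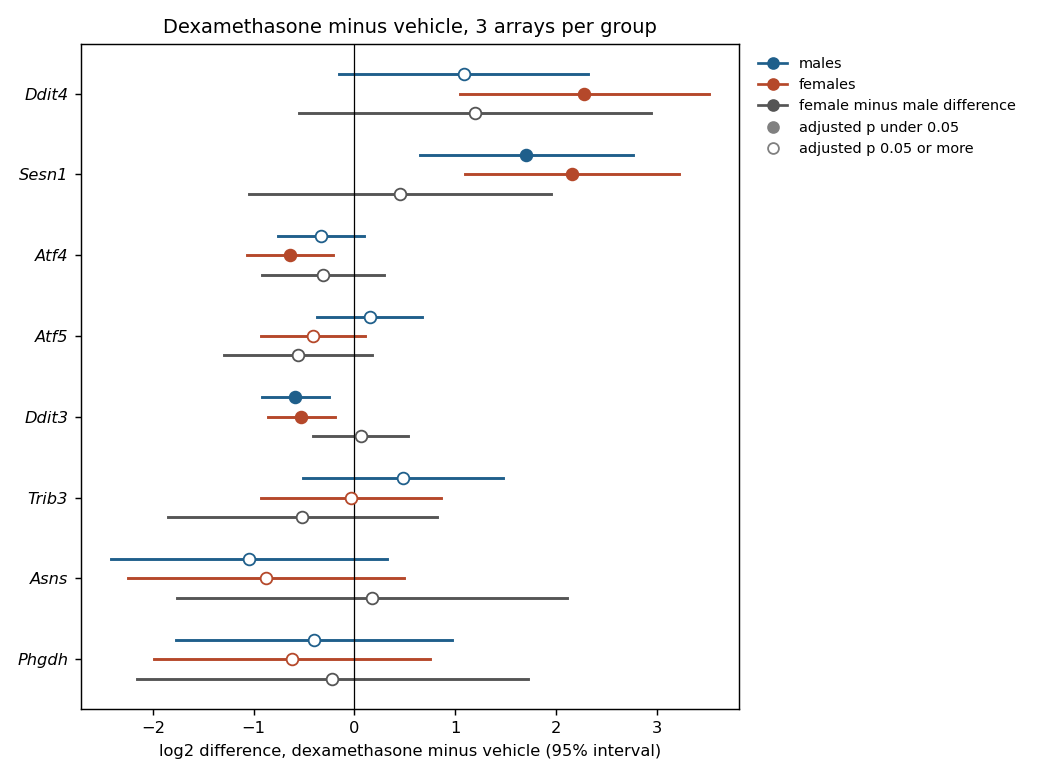
Difference between dexamethasone and vehicle for the 8 tested genes, on the log2 scale with 95% intervals, in males (upper line of each gene), in females (middle line) and as the female minus the male difference (lower line). Filled symbols have an adjusted p under 0.05. Sesn1 and Ddit3 are filled in both sexes, Ddit4 and Atf4 in females only, and no lower line is filled.

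Ddit4 encodes a protein that frees the tuberous sclerosis complex to switch off Rheb, the activator of mTORC1. Its level was -0.28, -0.14 and 0.02 on the female dexamethasone arrays, against -2.27, -1.84 and -3.13 on the female vehicle arrays. The groups did not overlap, as for 42.8% of all tested probes in females, and the means were -0.14 ± 0.15 and -2.42 ± 0.66 (SD, n = 3 each). In females Ddit4 thus rose by 2.28 ± 0.56 on the log2 scale, 4.85-fold (SE, adjusted p 0.0142, limma). In males the level was 0.47, -0.10 and -0.90 after dexamethasone, against -0.96, -0.25 and -2.56 after vehicle. Here the groups overlapped, with 2 dexamethasone arrays above all vehicle arrays and the array of slide 5 below male vehicle 2. The difference in males was 1.08 ± 0.56 (95% interval -0.15 to 2.32, adjusted p 0.219, limma). The arrays of slide 5 were the lowest of 3 of the 4 groups. Within slide 5 the difference was 1.66 in males and 3.15 in females, within slide 1 it was 0.73 in males, and with slide as a block it was 1.19 in males (adjusted p 0.0174) and 3.14 in females. A male call thus appeared only with slide as a fixed block. It did not appear with slide as a random block or with scan day as a block (adjusted p 0.0576, limma).

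Ordered by level, Ddit4 stood highest in both dexamethasone groups, at means of -0.14 in females and -0.17 in males, which overlapped. Male vehicle followed at -1.26 ± 1.18 and female vehicle at -2.42 ± 0.66 (SD, n = 3 each), and these also overlapped. The female response was 1.20 ± 0.79 larger than the male one on the log2 scale, which did not pass the test (95% interval -0.55 to 2.94, adjusted p 0.614, limma). The level of Ddit4 in female minus male livers differed by -1.16 ± 0.56 after vehicle (adjusted p 0.551) and 0.04 ± 0.56 after dexamethasone (adjusted p 0.985, limma).

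Sesn1 encodes sestrin 1, which restrains mTORC1 by binding GATOR2, a complex of the amino acid sensing branch. Its level was 2.58, 1.79 and 1.08 on the male dexamethasone arrays, against 0.08, 0.55 and -0.30 on the male vehicle arrays. It was 2.74, 2.87 and 2.43 on the female dexamethasone arrays, against 1.21, 0.91 and -0.55 on the female vehicle arrays. The groups did not overlap in either sex, as for 35% of all tested probes in males, and in all 4 groups the array of slide 5 was the lowest. Sesn1 rose 3.26-fold in males, by 1.71 ± 0.48 on the log2 scale (adjusted p 0.0296), and 4.46-fold in females, by 2.16 ± 0.48 (SE, adjusted p 0.00885, limma). Within slide 5 the difference was 1.38 in males and 2.98 in females, and within slide 1 it was 2.03 in males. The male call was lost without male vehicle 1, male vehicle 3, male dexamethasone 1 or male dexamethasone 2, with adjusted p from 0.0716 to 0.102 and differences from 1.33 to 1.72.

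The order of the Sesn1 means was female dexamethasone at 2.68 ± 0.23, male dexamethasone at 1.82 ± 0.75, female vehicle at 0.52 ± 0.94 and male vehicle at 0.11 ± 0.42 (SD, n = 3 each). The sexes overlapped after either treatment, and female minus male differences were 0.86 ± 0.48 after dexamethasone (adjusted p 0.435) and 0.41 ± 0.48 after vehicle (adjusted p 0.879, limma). Male dexamethasone and female vehicle, neighbours in this order, shared part of their range, since male dexamethasone 3 at 1.08 lay below female vehicle 1 at 1.21. The female response was 0.45 ± 0.68 larger than the male one (95% interval -1.05 to 1.95, adjusted p 0.830, limma).

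Ddit3 encodes CHOP, a C/EBP family factor that ATF4 induces and that takes part in cell death after lasting stress of the endoplasmic reticulum. Its level was -0.48, -0.36 and -0.39 on the male dexamethasone arrays, against 0.32, -0.02 and 0.24 on the male vehicle arrays. It was -0.25, -0.15 and -0.23 on the female dexamethasone arrays, against 0.13, 0.45 and 0.36 on the female vehicle arrays. All dexamethasone arrays lay below all vehicle arrays in both sexes, and the dexamethasone arrays of a sex lay close together. Ddit3 fell by 0.59 ± 0.15 on the log2 scale in males, 1.50-fold lower (adjusted p 0.0193), and by 0.53 ± 0.15 in females, 1.44-fold lower (SE, adjusted p 0.0281, limma). The female minus male difference of the responses was 0.06 ± 0.21 (95% interval -0.41 to 0.53, adjusted p 0.930). Within slide 5 the difference was -0.63 in males and -0.59 in females, close to that over all arrays, and within slide 1 it was -0.46 in males.

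These calls lie near the threshold, and the size moved less than the p. Without slide 5, Ddit3 differed by -0.57 in males and -0.49 in females, with adjusted p of 0.100 and 0.0995, and with slide as a block the female call was lost at -0.58 (adjusted p 0.123, limma). The male call was lost without male vehicle 1, male vehicle 3 or male dexamethasone 1 (adjusted p from 0.0597 to 0.0669). The female call was lost without female vehicle 2, female vehicle 3 or any female dexamethasone array (adjusted p from 0.0581 to 0.108). Both calls were lost with no filter on dim probes (adjusted p 0.0557 in males and 0.0724 in females) and with only the groups compared (0.0847 and 0.0699). The female call was also lost with scan day as a block (adjusted p 0.0736). The dexamethasone groups of the sexes did not overlap with each other, with all female arrays above the male ones, yet the female minus male difference of 0.20 ± 0.15 did not pass the test (adjusted p 0.581, limma).

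Atf4, the factor that gives the branch its name, had levels of 5.64, 5.51 and 5.73 on the female dexamethasone arrays, against 6.10, 6.27 and 6.43 on the female vehicle arrays. The groups did not overlap, and the transcript fell by 0.64 ± 0.19 on the log2 scale, 1.56-fold lower (SE, adjusted p 0.0357, limma). In males the level was 5.55, 5.72 and 6.10 after dexamethasone, against 6.10, 6.38 and 5.88 after vehicle. These groups overlapped, since on slide 5 the dexamethasone array lay above the vehicle array. The male difference was -0.33 ± 0.19 (95% interval -0.76 to 0.10, adjusted p 0.286, limma), with -0.83 within slide 1 and 0.22 within slide 5. Without slide 5 it was -0.60 (adjusted p 0.0627), and in the deposited value table it was -0.57 and passed the test (adjusted p 0.0433, limma). The female call was lost when any of the 6 female arrays was left out (adjusted p from 0.0516 to 0.120), with slide as a block (-0.66, adjusted p 0.235) and with no filter on dim probes (adjusted p 0.0732). The responses of the sexes differed by -0.31 ± 0.27, female minus male (adjusted p 0.698).

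Atf5, a relative of Atf4 whose translation is raised in the same way and which liver expresses strongly, had levels of 8.06, 8.08 and 8.34 on the female dexamethasone arrays, against 8.35, 8.58 and 8.78 on the female vehicle arrays. The groups came close without overlap, and the difference of -0.41 ± 0.23 did not pass the test (95% interval -0.93 to 0.11, adjusted p 0.231, limma). In males the level was 8.17, 8.60 and 9.00 after dexamethasone, against 8.50, 8.69 and 8.14 after vehicle, and the groups overlapped. The male difference was 0.15 ± 0.23 (adjusted p 0.739), and it was 0.86 within slide 5 and -0.52 within slide 1.

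Trib3 encodes a pseudokinase that binds the insulin-activated kinase AKT and also damps ATF4 itself. Its level was 2.59, 2.71 and 3.07 on the male dexamethasone arrays, against 3.23 and 1.39 on male vehicle 2 and male vehicle 3. The spot of male vehicle 1 was marked as an outlier by the scanner software and left out, so this group had 2 arrays. It was 1.68, 1.72 and 1.95 on the female dexamethasone arrays, against 2.06, 1.51 and 1.89 on the female vehicle arrays, where the groups overlapped. The difference between dexamethasone and vehicle was 0.48 ± 0.44 in males (95% interval -0.52 to 1.48, adjusted p 0.533) and -0.04 ± 0.40 in females (95% interval -0.93 to 0.85, adjusted p 0.956, limma). The male value rests on which vehicle array is read: it was 1.67 within slide 5, -0.63 within slide 1, and 1.40 without male vehicle 2 (adjusted p 0.0146, with 1 vehicle array left and assumed to vary like the others).

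Asns encodes asparagine synthetase, which makes asparagine from aspartate and glutamine and is among the most used readouts of ATF4. Its level was 1.77, 2.62 and 1.71 on the male dexamethasone arrays, against 3.79, 4.14 and 1.31 on the male vehicle arrays. It was 1.74, 1.91 and 1.20 on the female dexamethasone arrays, against 2.55, 2.14 and 2.80 on the female vehicle arrays. In females all dexamethasone arrays lay below all vehicle arrays. In males the same held for the arrays of slides 1 to 3, while male vehicle 3 on slide 5 was the lowest of all 6. The differences were -1.05 ± 0.62 in males (95% interval -2.42 to 0.32, adjusted p 0.290) and -0.88 ± 0.62 in females (95% interval -2.25 to 0.49, adjusted p 0.330, limma), and neither passed the test. Without male vehicle 3 the male difference was -1.93 (adjusted p 0.00487), and without slide 5 it was -1.77 (adjusted p 0.0158, limma). Within slide 5 it was 0.40 in males and -1.59 in females, and within slide 1 it was -2.37 in males. The male call for Asns thus turned on 1 array.

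Asns is also abundant in exocrine pancreas, whose markers were measured beside it. Of 20 pancreatic markers on the array, 7 to 13 were well above background on a given array, while Prss1, Pnlip, Amy2a3, Clps and Reg1a were so on none. The summed level of the 20 was 136 to 157 on male dexamethasone, 191 to 237 on male vehicle, 94.9 to 179 on female dexamethasone and 126 to 193 on female vehicle arrays. Male vehicle 3, where Asns was lowest in its group, had the highest sum of all arrays but only 7 of the 20 markers well above background. A sum follows its brightest members. Of 12 tested pancreatic markers, 0 were called in males, and 0 were called higher and 2 lower in females. The part of pancreatic RNA in the level of Asns was not tested.

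**Figure D3:**
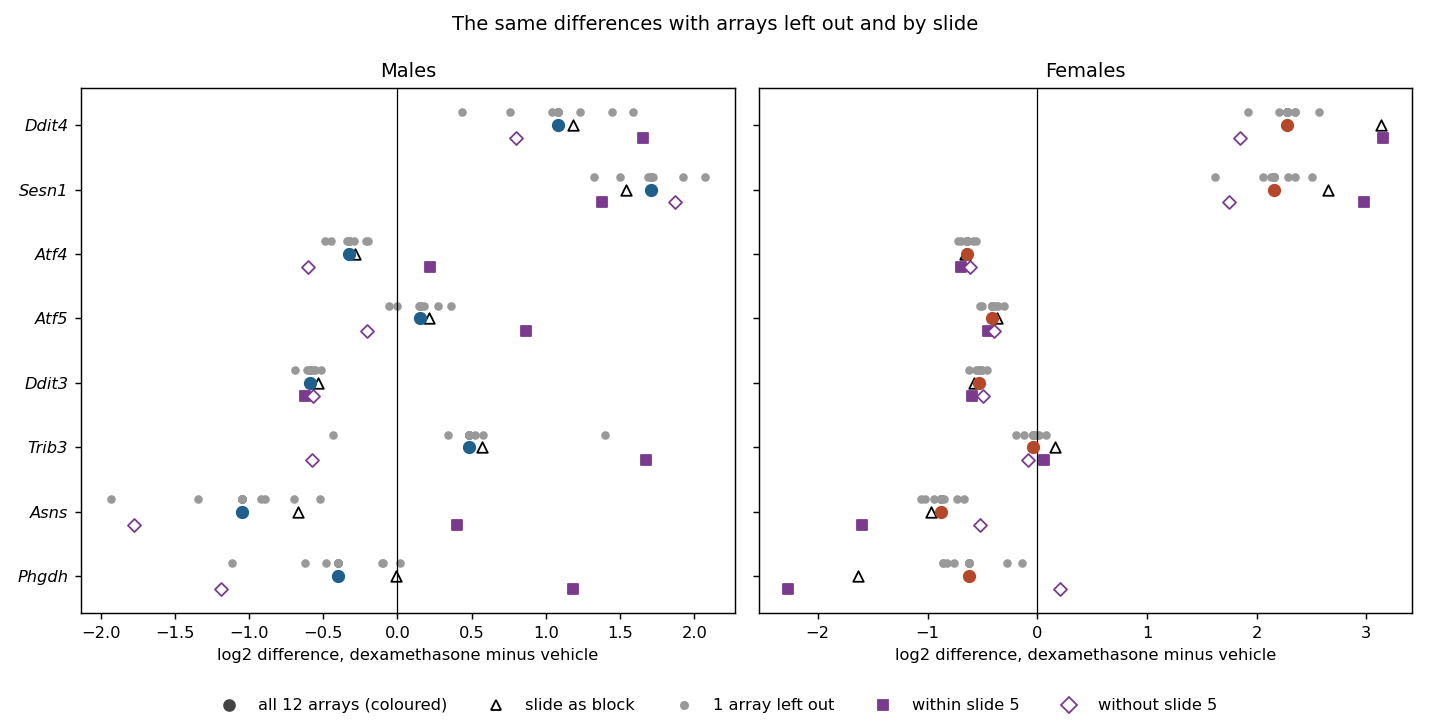
The difference between dexamethasone and vehicle on the log2 scale for each tested gene in males and in females, over all 12 arrays, with slide as a block, with single arrays left out, within slide 5 and without slide 5. For Ddit3 and Sesn1 all symbols stay on the side of the coloured circle. For Atf4, Atf5, Trib3, Asns and Phgdh in males the value within slide 5 lies on the other side of 0 from the value without it.

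Phgdh encodes the enzyme that commits 3-phosphoglycerate to the synthesis of serine. Its level was 4.39, 5.45 and 5.16 on the male dexamethasone arrays, against 5.99, 6.23 and 3.97 on the male vehicle arrays. It was 3.03, 3.01 and 1.58 on the female dexamethasone arrays, against 2.88, 2.75 and 3.85 on the female vehicle arrays. In both sexes the treatment groups overlapped, and in each sex the order on slide 5 was the opposite of that on the other slides. In females none of those other slides held both treatments. The difference between dexamethasone and vehicle was -0.40 ± 0.62 in males (95% interval -1.77 to 0.97, adjusted p 0.735) and -0.62 ± 0.62 in females (95% interval -1.99 to 0.75, adjusted p 0.502, limma). It was 1.18 in males and -2.27 in females within slide 5, against -1.19 in males and 0.20 in females without it.

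Between the sexes, Phgdh had the widest gap of the 8 genes. All 3 female arrays lay below all 3 male arrays after either treatment. After dexamethasone the mean was 2.54 ± 0.83 in females and 5.0 ± 0.55 in males (SD, n = 3 each), a female minus male difference of -2.46 ± 0.62 or 5.49-fold lower in females (95% interval -3.83 to -1.09, adjusted p 0.0780, limma). After vehicle the mean was 3.16 ± 0.60 in females and 5.40 ± 1.24 in males, a difference of -2.24 ± 0.62 or 4.71-fold lower in females (95% interval -3.61 to -0.87, adjusted p 0.144, limma). Neither passed the threshold over all probes. Without male vehicle 3 both did, at -2.46 after dexamethasone (adjusted p 0.0261) and -2.95 after vehicle (adjusted p 0.0267). That array is not among those compared after dexamethasone, so there only the shared estimate of spread and the adjustment changed. Without slide 5 both differences passed as well, at -1.90 after dexamethasone (adjusted p 0.0449) and -3.29 after vehicle (adjusted p 0.0146). Within slide 5 the values were -3.58 and -0.12. Of all tested probes, 22.8% had sexes that did not overlap after dexamethasone and 15.4% after vehicle.

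Psat1 encodes the aminotransferase that follows Phgdh in the synthesis of serine. Its level was -5.30, -5.40 and -5.43 on male dexamethasone, -4.89, -4.37 and -5.94 on male vehicle, -5.14, -4.43 and -4.62 on female dexamethasone and -6.26, -5.76 and -5.40 on female vehicle arrays. It was well above background only on male vehicle 2, at -4.37, so these levels have no order and no fold is given.

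Among the other genes, the sexes stood farthest apart for Ddit4 after vehicle, described above, and for Trib3 after dexamethasone. After dexamethasone, Trib3 lay at 1.68 to 1.95 on the female arrays and at 2.59 to 3.07 on the male arrays, a difference of -1.01 ± 0.40 that did not pass the test (95% interval -1.90 to -0.12, adjusted p 0.263, limma). Its adjusted p was 0.0499 without male vehicle 3, at the same difference. The groups of the sexes did not overlap for 3 of the 8 genes after dexamethasone (Ddit3, Trib3 and Phgdh) and for 1 after vehicle (Phgdh). By limma, 0 of the 8 were called between the sexes after either treatment, against 2.24% of all tested probes after dexamethasone and 1.68% after vehicle. At an unadjusted p under 0.05 there were 2 of 8 after dexamethasone (Trib3 and Phgdh), against 15.3% of all tested probes, and 1 of 8 after vehicle (Phgdh), against 9.91%. No gene was called for a difference of the dexamethasone effect between the sexes either, against 0.0248% of all tested probes, or 7 probes. At an unadjusted p under 0.05 there were 0 of the 8 here too, against 9.83% of all tested probes (limma).

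The wider pathway was read through 6 lists of genes, each gene at its brightest probe. The lists were chosen with earlier results of these data known, and up to 4 called genes with the largest difference are named for each list and sex. Counts can be read against the background of 9.23% of probes called higher and 10.5% called lower in males, and 11.9% and 12% in females.

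Of 20 measured targets of ATF4 in stress and amino acid uptake (23 listed), 3 were higher, 6 lower and 11 not called in males, and 4 were higher, 6 lower and 10 not called in females. The median difference was -0.53 in males and -0.78 in females. It stayed below 0 under every alternative but moved with single arrays: in males it was -0.30 without male vehicle 1, -0.24 without male vehicle 2, -0.80 without male vehicle 3 and -0.23 without male dexamethasone 3. In females it ran from -1.08 without female vehicle 3 to -0.31 with scan day as a block. The number called lower ran from 4 to 9 in males and from 4 to 10 in females, and the number called higher from 3 to 5 and from 2 to 4. Fgf21, a liver hormone of fasting and stress, had levels of -2.23, -1.83 and -2.12 on the male dexamethasone arrays, against 3.92, 3.69 and -0.11 on the male vehicle arrays. It was -1.73, -1.41 and -1.87 on the female dexamethasone arrays, against 2.63, 2.0 and 0.52 on the female vehicle arrays. All dexamethasone arrays lay below all vehicle arrays, and the vehicle arrays of slide 5 were the lowest of their groups. Fgf21 fell by 4.56 ± 0.91 on the log2 scale in males (adjusted p 0.00564) and by 3.39 ± 0.91 in females (SE, adjusted p 0.0221, limma). Gdf15, a stress hormone that curbs appetite, fell by 1.48 ± 0.38 in males (adjusted p 0.0198) and by 3.27 ± 0.38 in females (adjusted p 2.4e-04). Aldh18a1, an enzyme of proline synthesis, fell by 2.29 ± 0.50 in males (adjusted p 0.00868) and differed by -1.42 ± 0.50 in females (adjusted p 0.0621, limma).

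The transporter genes among these targets moved in opposite directions. Slc38a2, which carries small neutral amino acids into the cell, rose by 2.51 ± 0.23 in males (adjusted p 5.9e-05) and by 2.11 ± 0.23 in females (adjusted p 1.5e-04, limma). Slc3a2 encodes the heavy chain that anchors several amino acid exchangers, and it rose by 1.97 ± 0.32 in males (adjusted p 0.00189) and by 1.50 ± 0.32 in females (adjusted p 0.00765). Its light chain partner Slc7a5, the leucine exchanger, fell by 1.80 ± 0.45 in males (adjusted p 0.0176) and by 3.54 ± 0.45 in females (adjusted p 3.9e-04, limma). Slc7a5 was well above background on 1 of 3 dexamethasone arrays in each sex. The size of its difference thus rests in part on signals near background. The other transporter genes of the list are given after their values were seen. Slc1a5, which carries glutamine, fell by 0.84 ± 0.19 in males (adjusted p 0.0111) and by 1.56 ± 0.19 in females (adjusted p 3.2e-04, limma). Slc6a9, a glycine transporter, differed by -0.78 ± 0.33 in males (adjusted p 0.130) and fell by 1.36 ± 0.33 in females (adjusted p 0.0131), and Slc7a1 was not called in either sex. Of the 6 transporter genes measured, 2 were thus called higher and 2 lower in males, and 2 higher and 3 lower in females.

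**Figure D4:**
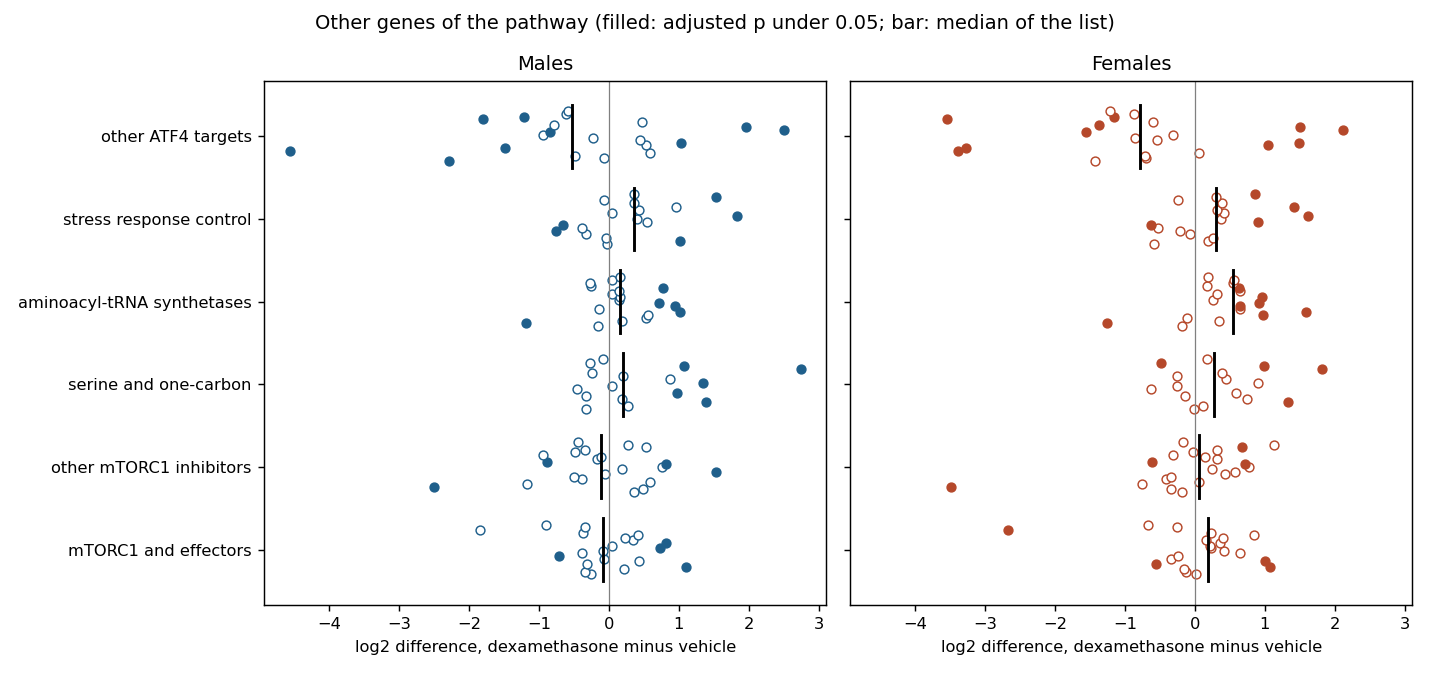
Difference between dexamethasone and vehicle on the log2 scale for the measured genes of 6 lists, in males (left) and females (right), where each point is a gene, filled points have an adjusted p under 0.05 and the black bar is the median of the list. The list of other ATF4 targets has the widest spread, from Fgf21 at -4.56 to Slc38a2 at 2.51 in males, and a median of -0.53 there and -0.78 in females. The medians of the other 5 lists lie between -0.11 and 0.55.

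Among 17 genes that control the stress response, 3 were higher and 2 lower in males (median 0.35), and 4 were higher and 1 lower in females (median 0.30). In males the number called higher was 5 with the replicate block, 6 with slide or scan day as a fixed block and 7 with slide as a random block. The male median was 0.21 without male vehicle 3 or male dexamethasone 2, 0.20 without male dexamethasone 3 and 0.14 with normexp background correction, and the female median was 0.19 without female vehicle 3. Eif2b3, a subunit of the exchange factor that recycles eIF2, rose by 1.83 ± 0.23 in males (adjusted p 4.0e-04) and 1.62 ± 0.23 in females (adjusted p 8.0e-04, limma). Ppp1r15a, also known as GADD34, which directs a phosphatase to eIF2, rose by 1.53 ± 0.25 in males (adjusted p 0.00186), and Cebpb, a partner of ATF4, rose by 1.02 ± 0.22 in males (adjusted p 0.00935). Eif2ak2, the eIF2 kinase that senses double-stranded RNA, fell by 0.75 ± 0.15 in males (adjusted p 0.00535). In females the eIF2 subunit gene Eif2s1 rose by 1.42 ± 0.34 (adjusted p 0.0129), Eif2b1 by 0.90 ± 0.20 (adjusted p 0.00976) and the phosphatase partner Ppp1r15b by 0.86 ± 0.25 (adjusted p 0.033, limma). Ppp1r15a differed by 0.30 ± 0.25 in females and Cebpb by 0.19 ± 0.22, and the female minus male differences of these responses did not pass the test (-1.22, adjusted p 0.346, and -0.83, adjusted p 0.457).

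After dexamethasone, 0 genes of this list were called higher in females than in males, against 1.27% of all tested probes, and 3 were called lower, against 0.965%: Atf3 by -1.75 ± 0.38 (adjusted p 0.0416), Cebpb by -1.14 ± 0.22 (adjusted p 0.0272) and Ppp1r15a by -1.13 ± 0.25 (adjusted p 0.047, limma). They are named because the count was small, after their values were seen. These 3 calls lie near the threshold and were not followed over the alternatives. Female and male dexamethasone arrays shared only slide 5. There the female and male levels were -1.91 and 0.29 for Atf3, 2.33 and 3.50 for Cebpb, and 1.16 and 1.76 for Ppp1r15a. In the other 5 lists no gene was called between the sexes after either treatment, and in none of the 6 lists was a gene called for a difference of the response between the sexes.

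Aminoacyl-tRNA synthetases load amino acids onto transfer RNAs, and many are ATF4 targets. Of 18 measured, 4 were higher and 1 lower in males (median 0.15), and 6 were higher and 1 lower in females (median 0.55). Cars1, the enzyme for cysteine, fell by 1.18 ± 0.29 in males (adjusted p 0.0148) and 1.26 ± 0.29 in females (adjusted p 0.00991, limma). Farsb, a subunit of the enzyme for phenylalanine, rose by 1.02 ± 0.31 in males (adjusted p 0.0406) and 1.59 ± 0.31 in females (adjusted p 0.00436). Hars1 and Rars1 rose by 0.95 and 0.77 in males, and Farsa and Lars1 each by 0.97 in females. The count of higher synthetases ran from 1 to 5 in males, with 1 without slide 5, and from 2 to 7 in females, with 2 with slide as a block or without female dexamethasone 2. The male median ran from -0.02, without male vehicle 3, to 0.28, without male vehicle 2, so no direction is given for it.

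Of 16 enzymes listed for serine, glycine and one-carbon metabolism, 5 were higher and none lower in males (median 0.20). In females 3 were higher and 1 lower (median 0.28). The list also holds Glul, Gls2, Aspg and Ggt1, enzymes of glutamine, asparagine and glutathione. Glul is among those called higher in males, so the counts and medians are not of the named pathway alone. Over the alternatives the median ran from 0.04 to 0.25 in males and from 0.16 to 0.39 in females. Sds, serine dehydratase, which degrades serine to pyruvate, had means of 4.36 ± 0.52 on male dexamethasone arrays and 1.62 ± 0.19 on male vehicle arrays (SD, n = 3 each). Sds rose by 2.75 ± 0.38 in males (adjusted p 6.8e-04) and 1.82 ± 0.38 in females (adjusted p 0.00665, limma). Its relative Sdsl rose by 1.08 ± 0.28 in males and 0.99 ± 0.28 in females, and Cbs, which passes serine on to cysteine synthesis, rose by 1.39 ± 0.16 and 1.34 ± 0.16. Glul, glutamine synthetase, rose by 1.34 ± 0.31 in males (adjusted p 0.012), and Shmt1, which splits serine to glycine, fell by 0.48 ± 0.15 in females (adjusted p 0.0468). Psph, the last enzyme of serine synthesis, differed by -0.25 ± 0.25 in males and 0.39 ± 0.25 in females (adjusted p 0.581 and 0.292, limma).

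Beside Ddit4 and Sesn1, 21 of 23 genes listed as other inhibitors of mTORC1 were measured. Of these, 2 were higher and 2 lower in males (median -0.11), and the same numbers in females (median 0.06). The list also holds Eif4ebp1 and Eif4ebp2, whose products bind eIF4E and act downstream of mTORC1 and do not inhibit it. Sesn2 and Eif4ebp1 are in the list of ATF4 targets as well. Relatives of Ddit4 and Sesn1 are in the list too. Ddit4l, also known as REDD2, had levels of -5.94, -4.79 and -5.73 on the male dexamethasone arrays, against -3.49, -2.87 and -2.59 on the male vehicle arrays. It was -6.81, -6.65 and -6.36 on the female dexamethasone arrays, against -3.19, -2.75 and -3.41 on the female vehicle arrays. It was not well above background on any dexamethasone array, and it was so on 3 of 3 male and 2 of 3 female vehicle arrays. It thus passed the filter on dim signals through vehicle arrays only, and its fall has a lower bound only. It was at least 2.31-fold lower in males and at least 2.44-fold lower in females. The adjusted p of 5.3e-04 in males and 7.7e-05 in females (limma) are not for these bounds. They are for the full differences, which take in dexamethasone signals not well above background. The bound sets the vehicle mean against the dimmest signal well above background on each dexamethasone array. Sesn2 differed by -0.94 ± 0.31 in males (adjusted p 0.061) and -0.31 ± 0.31 in females (adjusted p 0.511), and Sesn3 by -0.49 ± 0.38 and -0.03 ± 0.38 (adjusted p 0.439 and 0.967, limma). Sesn2 and Sesn3 are given because they are the relatives of Sesn1 in the list.

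Klf15, a glucocorticoid-induced factor of amino acid breakdown that opposes mTORC1 in muscle, rose by 1.53 ± 0.23 in males (adjusted p 0.00117) and differed by 0.58 ± 0.23 in females (adjusted p 0.0982, limma). Of the subunits of the energy-sensing kinase AMPK, the catalytic Prkaa2 rose by 0.82 ± 0.19 in males and 0.71 ± 0.19 in females, while the scaffold Prkab1 fell by 0.89 ± 0.19 and 0.62 ± 0.19. Tbc1d7, a subunit of the tuberous sclerosis complex, rose by 0.68 ± 0.20 in females (adjusted p 0.0315, limma). Among 20 genes of mTORC1 and its effectors, 3 were higher and 1 lower in males (median -0.08), and 2 were higher and 2 lower in females (median 0.19). Eif4e, the cap-binding factor that mTORC1 releases from its binding proteins, rose by 1.10 ± 0.18 in males (adjusted p 0.00166) and 1.07 ± 0.18 in females (adjusted p 0.00181). Rps6 and Pdpk1 rose by 0.81 and 0.73 and Lamtor5 fell by 0.71 in males. In females Lamtor3 rose by 1.0, Rragd fell by 2.67 and Lamtor1 fell by 0.56. Rragd was well above background on 2 of the 3 female dexamethasone arrays, so its size rests in part on a background signal. The medians of both mTORC1 lists changed sign with the setting in both sexes, between -0.23 and 0.21, so no direction is given for them. Over the alternatives the inhibitors called lower ran from 2 to 6 in males and from 1 to 3 in females, and those called higher from 2 to 4 and from 0 to 3. For mTORC1 and its effectors the number called higher ran from 1 to 4 in males and from 0 to 3 in females, and the number called lower from 0 to 4 and from 0 to 2.

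Among the genes named in the 6 lists, 26 were called in males, and 14 of these calls held under every alternative, single arrays left out included. These were Fgf21, Slc38a2, Slc3a2 and Aldh18a1 among the ATF4 targets, Eif2b3, Ppp1r15a and Eif2ak2 of the stress response, Hars1 of the synthetases, Sds, Cbs and Glul of serine and glutamine metabolism, and Klf15, Prkaa2 and Eif4e of the mTORC1 lists. Of 27 called in females, 9 held under every alternative, namely Slc38a2, Slc7a5, Gdf15, Eif2b3, Farsa, Farsb, Sds, Cbs and Ddit4l. That of Ddit4l rests on dexamethasone signals not well above background in every setting. The other calls of the genes followed were lost under at least 1 alternative, and none of them turned its direction. The calls of Slc1a5 and Slc6a9, named after their values were seen, were not followed in this way.

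Genes with the most similar pattern were sought among 11453 others with a symbol, by the distance between the 4 group means after each gene's own mean was removed. Nearest to Ddit4 were Sgsm2 (distance 0.19), Hsd17b12 (0.20) and Tob2 (0.33), and nearest to Sesn1 were Tent4a (0.26), Fam180a (0.32) and Prpf19 (0.36). For Atf4 they were Erg (0.02), Itgb4 (0.03) and Sod3 (0.04), and for Ddit3 they were Msrb2, Plscr3 and Snx16 (0.04 each). Sgsm2, the nearest to Ddit4, differed by 1.17 in males and 2.38 in females, beside 1.08 and 2.28 for Ddit4. With 4 group means and this many candidates, near neighbours are found for many patterns, and a small distance is a description of these 12 arrays.

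Promoters of the 9 genes were searched on both strands, from 250 bases before to 50 bases after a RefSeq start of each gene on GRCr8. The letters sought were the C/EBP-ATF response element (TGATGNAAN) and the glucocorticoid response element (GNACA and TGTNC with 3 bases between them). The C/EBP-ATF letters occur in 3.97% of 33469 rat promoters of that length, and the glucocorticoid letters in 0.439%. The window of Sesn1 (chr20:46948469-46948768) lies inside the gene, which runs from 46876918 to 46970010. The windows of Atf5, Asns and Psat1 also lie inside the outer ends of their genes, and other starts of these genes were not searched. Only Trib3 held a match, to the C/EBP-ATF element. Its promoter is shown because this element is the kind of site that ATF4 and CHOP bind, with the match in capitals, which is read on the opposite strand as TGATGTAAA and lies at bases -22 to -14 from the start (chr3:161275484-161275783, minus strand):
Trib3: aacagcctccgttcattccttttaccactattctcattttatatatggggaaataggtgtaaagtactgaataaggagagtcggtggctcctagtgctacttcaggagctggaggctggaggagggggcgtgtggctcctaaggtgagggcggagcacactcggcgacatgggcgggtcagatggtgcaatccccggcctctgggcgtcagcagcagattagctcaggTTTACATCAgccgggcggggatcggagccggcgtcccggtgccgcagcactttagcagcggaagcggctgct
A match of letters describes the sequence only, and the other 8 windows show only that these letters are not in them. The glucocorticoid letters were not in the windows of Ddit4 and Sesn1, the genes that rose, and elements outside the windows were not searched.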

How the data were processed

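Gene expression was measured with 1-colour Agilent arrays, 12 in all. The deposited scanner files hold intensity values per spot, made with Agilent Feature Extraction 9.1 per the submitters' processing notes. A deposited value table holds log10 values of the same arrays, whose centring is not given in the sources used here, and it served as an alternative. Log2 values were computed here from the deposited processed signal, which is background-corrected per the file headers, minus each array's 75th percentile over spots other than controls.

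Outlier spots were left out, spots of a probe were averaged, and a probe was tested if 3 or more of the 12 arrays showed it well above background and each group had 2 usable arrays. A model with 4 group means and 5 contrasts was fitted with limma 3.58.1 in R 4.3.3 (lmFit, eBayes). P-values were adjusted by Benjamini-Hochberg over all 28173 probes, with a threshold of 0.05, and the pipeline was tested on simulated data. The number of arrays limits the precision. Slides were read from the file headers.

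The members and the gene lists were chosen with earlier results of these data known. A list gene was read at its brightest probe, and in each list up to 4 called genes with the largest difference in each sex were named. Genes close in pattern were the 3 nearest to each member called in either sex. Alternatives were normexp background correction (offset 50), quantile normalization, the deposited table, other filters, slide, scan day or replicate number as a block, only the groups compared, and single arrays left out. Promoters are RefSeq sequences on GRCr8. Figures were drawn with matplotlib 3.10.9.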

Additional observations from a re-analysis of the deposited data

How the results depend on the processing

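Over 1000 recomputed differences of the 8 tested genes, 29 lost a call, 12 gained one, 0 reversed a call and 27 values within a slide moved. The other 932 kept their side of the threshold or, within a slide, lay near the value over all arrays. Uncalled differences changed sign in 54 cases, some of them among the 932. The settings with scan day as a block, without the 4 arrays of slide 5 and within slide 1 were chosen after seeing the data. Called probes of the whole array numbered 8971 in males with slide as a random block (5552 in the analysis reported) and 3592 in females with slide as a fixed block (6738). For the difference of the response between the sexes (7 probes) they numbered 31 with normexp, 0 without a filter, 12 with slide as a random block, 13 with scan day as a block and 0 without slide 5. Between the sexes after vehicle (472) they numbered 271 with slide as a fixed and 746 as a random block, 182 with only the groups compared, 792 with scan day and 291 without slide 5. After dexamethasone (630) they numbered 1083 with slide as a random block, 984 with the replicate block and 971 without slide 5. Of the 8 genes, those called in males (2) fell to 1 without a filter and to 1 with only the groups compared. In females (4) they fell to 2 without a filter, 2 with slide as a fixed block and 2 with scan day. Between the sexes (0), 1 was called after vehicle without slide 5, and 1 after dexamethasone with each of normexp, slide as a random block and no slide 5, which was Phgdh.

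With single arrays left out, called probes ranged from 4194 to 5943 in males, 4271 to 6856 in females, 0 to 4 for the difference of the response, 299 to 457 between the sexes after vehicle and 337 to 714 after dexamethasone. The called genes among the 8 ranged from 0 to 3 in males, 2 to 4 in females, 0 to 0 for the difference of the response, and 0 to 1 and 0 to 2 between the sexes after vehicle and dexamethasone. The groups share replicate numbers, but the deviations of same-numbered arrays correlated at 0.01 to 0.36 for numbers 1 and 2, and at 0.21 to 0.59 for number 3, which is slide 5, so that pairing was not established. A replicate block gave 7336 called probes in males, 8966 in females, 9 for the difference of the response, 632 between the sexes after vehicle and 984 after dexamethasone, and changed no call of the 8 genes. Of the 36 list genes named by the rule of up to 4 per list and sex, 26 were called in males, 14 of them under all 24 alternatives. In females 27 were called, 9 of them under all. The dim arrays of slide 5 limit what can be read of weak genes such as Psat1. The cause of these changes was not tested.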
